A study of Drosophila melanogaster with 4 samples.

Results

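JHDM1 clusters were described at the 2 Hox gene complexes of Drosophila melanogaster, the Antennapedia complex and the bithorax complex, both on chromosome arm 3R. JHDM1, named Kdm2 in the RefSeq gene table, is a JmjC-domain histone H3 lysine demethylase with a CXXC zinc finger. The members were all clusters that overlapped 3R:2480000-2830000 (Antennapedia complex) or 3R:12480000-12810000 (bithorax complex) by at least 1 base, on FlyBase release 5. A cluster is a region that the authors listed as significantly enriched. Of the 11598 clusters in the combined list, 58 were members, with 23 in the Antennapedia complex and 35 in the bithorax complex. ChIP replicate 1 contributed 22 members out of 4768 clusters and ChIP replicate 2 contributed 22 out of 4805. The samples came from Oregon-R (Oregon-R-modENCODE) wild-type embryos aged 14 to 16 h. Their descriptions list 1.8% formaldehyde and an antibody step of 15 h. There were 2 chromatin immunoprecipitation (ChIP) samples, made with the JHDM1 antibody Q2634, and 2 inputs of chromatin that was not precipitated. Both groups share genotype and stage, and the data used are the 2 replicate lists and the combined list. Nothing in the labels tells whether the replicates are separate collections of embryos, and their spread may be technical only. The lists give no read counts, and the depth behind a cluster is unknown. Whole embryos hold every body segment, and a cluster does not tell in which cells JHDM1 was bound.

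Hox genes encode homeodomain transcription factors that give each body segment its identity, and each is active in its own stretch of the body axis. In the fly, proteins of the Polycomb group keep them silent in the other segments, and JHDM1 is known there as a subunit of dRAF, a Polycomb group complex that ubiquitylates histone H2A. The Antennapedia complex holds 5 Hox genes. Along 3R the RefSeq table lists them as lab, which acts in the embryonic head and midgut, pb and Dfd, which act in the mouthpart segments, Scr, which acts in the labial segment and prothorax, and Antp, which acts in the thorax. From lab to Antp it lists 43 genes, 19 of them protein-coding. Among the others are the homeobox genes zen, zen2, bcd and ftz, which act in the early embryo, a group of Ccp84A cuticle protein genes, and the microRNA genes mir-993 and mir-10. The bithorax complex holds 3 Hox genes, listed as Ubx, which acts in the posterior thorax and anterior abdomen, abd-A, which acts in the abdomen, and Abd-B, which acts in the posterior abdomen. From Ubx to Abd-B the table lists 16 genes, 6 of them protein-coding, with 7 long noncoding RNA genes such as lncRNA:bxd and lncRNA:iab8 and the microRNA genes mir-iab-4 and mir-iab-8. This table belongs to release 6 and was used for names and gene order only. Clusters are therefore given by position on release 5, and none is assigned to a gene.

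Both complexes carried JHDM1 clusters in both replicates, at numbers inside the range of other windows of 3R. In the Antennapedia complex, replicate 1 had 10 clusters and replicate 2 had 12 (11 ± 1.41, SD, n = 2), and in the bithorax complex they had 12 and 10 (11 ± 1.41, SD, n = 2). For comparison, 3R was tiled from its first base into windows of the same length that touch neither complex, 75 of them for the Antennapedia complex and 80 for the bithorax complex. The median of the windows set beside the Antennapedia complex was 15 clusters in replicate 1 and 14 in replicate 2, and that of the windows set beside the bithorax complex was 13 in each replicate. More clusters than in the Antennapedia complex were found in 56 of 75 windows in replicate 1 and in 45 of 75 in replicate 2. For the bithorax complex this held for 44 of 80 windows in replicate 1 and for 56 of 80 in replicate 2. Expressed as a percentile, which counts the windows below with weight 1 and those equal with weight 0.5, the number of clusters stood at 29.7 ± 10.8 in the Antennapedia complex and at 33.4 ± 11.9 in the bithorax complex (SD, n = 2 replicates). Windows are not replicates of a condition, so these ranks carry no test.

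The length under clusters was also below the median window in each replicate. In the Antennapedia complex, clusters covered 25.2 kb in replicate 1 and 25.7 kb in replicate 2, against window medians of 29.1 kb and 27.8 kb. That is 7.28% ± 0.112 of the complex, at percentile 38.7 ± 1.89 (SD, n = 2). Coverage of the bithorax complex was 24.99 kb in replicate 1 and 18.15 kb in replicate 2, against window medians of 27.1 kb and 24.3 kb. Here the replicates lay further apart, with 6.54% ± 1.47 of the complex covered, at percentile 31.3 ± 21.2 (SD, n = 2). Neither complex stood at an extreme of the windows in number or covered length in a replicate list.

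**Figure D1:**
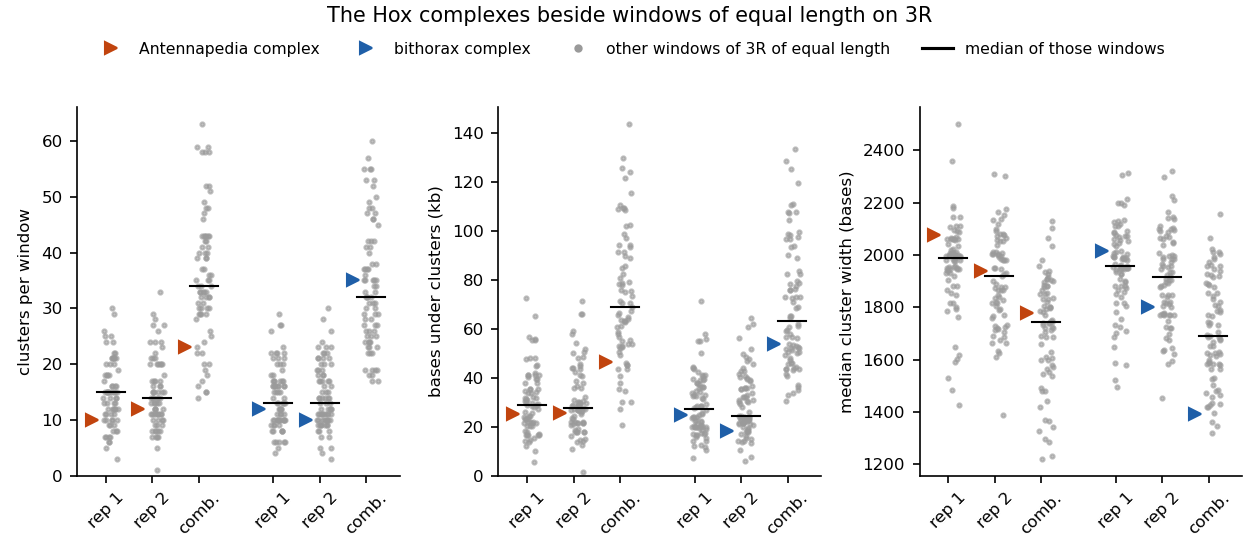
Number of clusters, bases under clusters (kb) and median cluster width (bases) in the Antennapedia complex and the bithorax complex (triangles), in the other windows of 3R of equal length (grey points) and at the median of those windows (black line), for ChIP replicate 1, ChIP replicate 2 and the combined list. The replicate triangles lie below the line for number and covered bases, and the combined median width of the bithorax complex, 1391 bases, lies near the low end of its windows.

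Set beside the regions of equal length on either side, the bithorax complex had fewer clusters than both in each replicate. It had 12 and 10 clusters in replicates 1 and 2, against 17 and 16 in the region before it and 14 and 13 in the region after it. The Antennapedia complex had 10 and 12, against 10 and 16 before it and 13 and 14 after it. In the combined list the Antennapedia complex had 23 clusters, against 34 on each side, while the bithorax complex had 35, against 43 before it and 29 after it.

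The Antennapedia complex held 1 broad, high-scoring cluster, at 3R:2643985-2649785 in the combined list, with a width of 5801 bases. Each cluster carries a score that the authors deposited with no stated scale, so scores are ranked only within a list, and those of paired clusters are set side by side without comparing their level. Replicate 1 gave this cluster 5795 bases and a score of 2.07, and replicate 2 gave it 5738 bases and 1.61. Both ends agreed closely between the replicates, with the starts 13 bases and the ends 44 bases apart. Its score was the 8th highest of 1165 on 3R in replicate 1, the 11th of 1180 in replicate 2 and the 8th of 2828 in the combined list. By width it was 8th on 3R in replicate 1, 5th in replicate 2 and 49th in the combined list. This cluster alone made up 23.0% of the covered bases of the complex in replicate 1 and 22.3% in replicate 2. A wider cluster was held by 6 of 75 windows in replicate 1, by 4 of 75 in replicate 2 and by 31 of 75 in the combined list, so its width stood out in the replicate lists and not in the combined one. Clusters of 5 kb or more were 1 of 10 in the complex and 12 of 1143 (1.05%) on the rest of 3R in replicate 1, and 1 of 12 and 13 of 1158 (1.12%) in replicate 2. In the combined list they were 1 of 23 and 86 of 2770 (3.10%).

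Immediately before the broad cluster lay a second cluster of both replicates, at 3R:2640621-2643196. It scored 0.898 in replicate 1 and 0.877 in replicate 2, the second-highest score of the complex in each replicate. The gap between these neighbours measured 774 bases in replicate 1 against 916 in replicate 2, and together they span 8.89 kb and 8.94 kb. In blocks of 50 kb counted from the start of the complex, the block from 150 to 200 kb, which holds them, had 52.0% of the covered bases in replicate 1 and 44.1% in replicate 2. Without the broad cluster the block had 37.6% and 28.0% of the remaining covered bases. In the combined list the block had 30.0%, and its 4 clusters were fewer than the 5 in each of the blocks from 50 to 100 kb and from 250 to 300 kb. The block from 50 to 100 kb had no cluster in either replicate. In the bithorax complex the block from 150 to 200 kb also had the most covered bases, with 24.9% in replicate 1 and 37.0% in replicate 2. These shares were not compared with other windows.

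The other 6 combined clusters of the Antennapedia complex found in both replicates were narrower or scored lower. At 3R:2757380-2760323 the replicates scored 0.894 and 0.753, with widths of 2890 and 2072 bases. The cluster 3R:2502884-2505288 scored 0.579 and 0.620, and 3R:2824334-2827708, close to the end of the complex, scored 0.617 and 0.563. The cluster 3R:2591699-2593862 scored 0.724 in replicate 1, the 284th of 1165 on 3R, and 0.423 in replicate 2, the 1106th of 1180, so it ranked high in one list and low in the other. The cluster 3R:2673345-2676759 was 1 region of 3251 bases in replicate 1 and 2 adjacent regions of 1830 and 1493 bases in replicate 2, all with scores from 0.431 to 0.487. The lowest of these scores belonged to 3R:2718295-2720074, with 0.478 and 0.321.

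**Figure D2:**
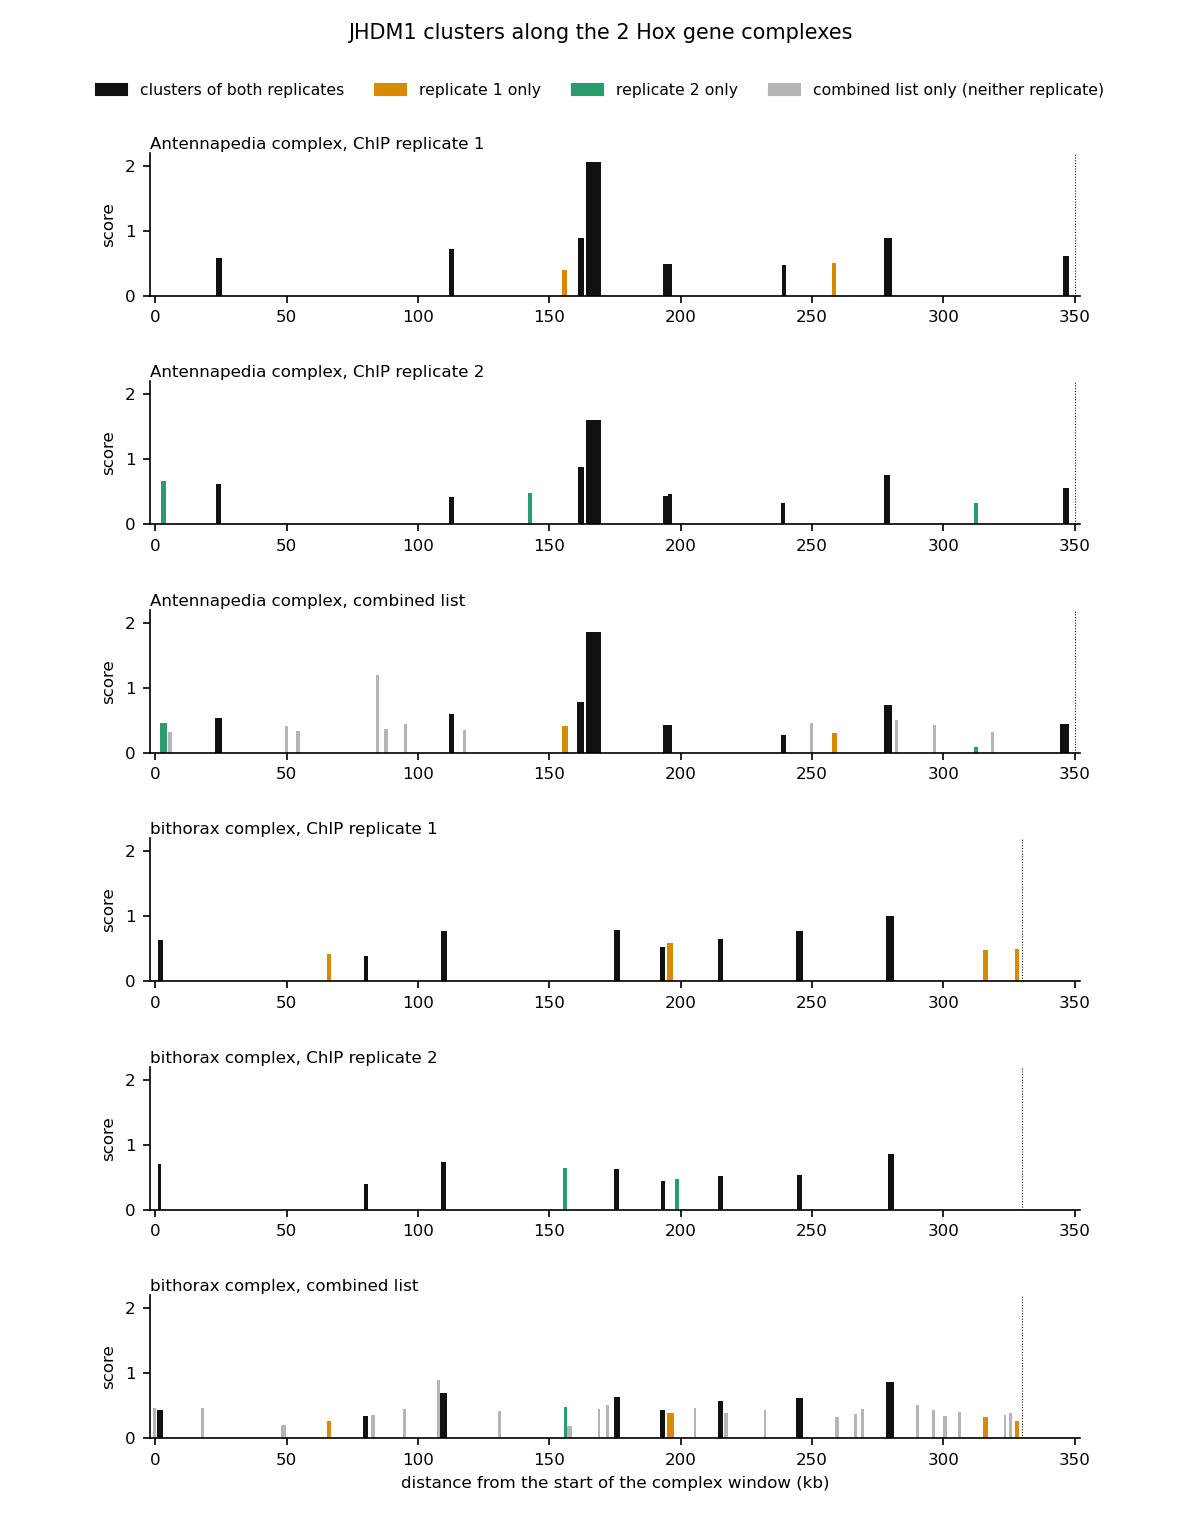
JHDM1 clusters along the Antennapedia complex and the bithorax complex, by distance from the start of the complex window (kb), for ChIP replicate 1, ChIP replicate 2 and the combined list. Bar width is the cluster's width, bar height its score as deposited, which cannot be compared in level between lists, and colour shows which replicate lists hold the cluster. The dotted line is the end of the window. The Antennapedia complex has 1 broad cluster with scores of 2.07 and 1.61 in the replicates, while the scores of the bithorax complex do not pass 1.01 in a replicate list.

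The bithorax complex had no such cluster. Its highest replicate scores were 1.01 in replicate 1 and 0.862 in replicate 2, both at 3R:12757969-12761364. Its widths, 3104 and 2517 bases, were also the largest of the complex in each replicate. A wider cluster was held by 49 of 80 windows in replicate 1 and by 72 of 80 in replicate 2. In the combined list, where the widest cluster of the complex had 3396 bases, this held for 77 of 80. In replicate 1, 59 of 80 windows held a higher top score, and in replicate 2, 60 of 80. The top score of the Antennapedia complex was passed in 7 of 75 windows in replicate 1 and in 10 of 75 in replicate 2. Both complexes had the same number of combined clusters found in both replicates, 8 each, where the windows had a median of 9.

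At 3R:12588554-12590933 the replicates scored 0.772 and 0.733, and at 3R:12654446-12656800 they scored 0.793 and 0.620. The cluster 3R:12480581-12483043, at the start of the complex, scored 0.642 and 0.704 and was 2121 bases wide in replicate 1 and 1407 in replicate 2. All of these scores were above the median of 3R outside the complexes, which was 0.588 in replicate 1 and 0.618 in replicate 2. At 3R:12723844-12726672 replicate 1 gave 0.776 and 2789 bases, while replicate 2 gave 0.535 and 1788 bases. The scores at 3R:12694232-12696282 were 0.652 and 0.521, and those at 3R:12672173-12674213 were 0.532 and 0.440. The lowest, at 3R:12559186-12561096, were 0.390 and 0.393. In replicate 2 these 4 clusters scored below the 3R median, and in replicate 1 this held for the last 2 of them.

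Over all its clusters, the Antennapedia complex had a median score of 0.598 in replicate 1 and 0.522 in replicate 2. For the bithorax complex the medians were 0.618 and 0.577. Outside the complexes the median on 3R was 0.588 in replicate 1 and 0.618 in replicate 2, so in each complex replicate 1 lay above it and replicate 2 below. The median score of the Antennapedia complex stood at percentile 57.3 of the windows in replicate 1 and at percentile 4 in replicate 2. In the bithorax complex these percentiles were 68.8 and 20. The direction of a score difference from the rest of 3R therefore did not hold in both replicates for either complex.

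Median widths did not set the complexes apart in the replicate lists either. The median cluster was 2078.5 bases wide in replicate 1 and 1940.5 in replicate 2 in the Antennapedia complex, at percentile 68.7 ± 21.7. In the bithorax complex it was 2016 and 1802.5 bases, at percentile 47.8 ± 27.8 (SD, n = 2 replicates). The rest of 3R had medians of 1970 and 1924 bases. In the combined list the bithorax complex stood near the low end, with a median width of 1391 bases against a window median of 1692.75, and 77 of 80 windows had a larger one.

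In the combined list, support by both replicates lay above the rest of 3R in the Antennapedia complex and below it in the bithorax complex. In the Antennapedia complex, 8 of 23 combined clusters, or 34.8% (exact 95% Clopper-Pearson interval 16.4 to 57.3%), overlapped clusters of both replicates. For the bithorax complex it was 8 of 35, or 22.9% (10.4 to 40.1%). On 3R outside the complexes it was 780 of 2770, or 28.2%, which lies inside both intervals. These intervals hold counting error alone, as if clusters were independent. They are wide and cannot show that the shares are alike. Among windows of equal length, the share was higher in 12 of 75 than in the Antennapedia complex (percentile 84, window median 28.2%). It was higher in 58 of 80 than in the bithorax complex (percentile 27.5, window median 29.2%). Read from the replicates, 8 of 10 clusters of replicate 1 and 9 of 12 of replicate 2 in the Antennapedia complex overlapped a cluster of the other replicate. The bithorax complex had 8 of 12 and 8 of 10. Outside the complexes the shares were 69.8% of replicate 1 clusters and 69.9% of replicate 2 clusters. Both lay inside the exact 95% intervals of the complexes, which ran from 34.9 to 90.1% for 8 of 12 and from 44.4 to 97.5% for 8 of 10.

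**Figure D3:**
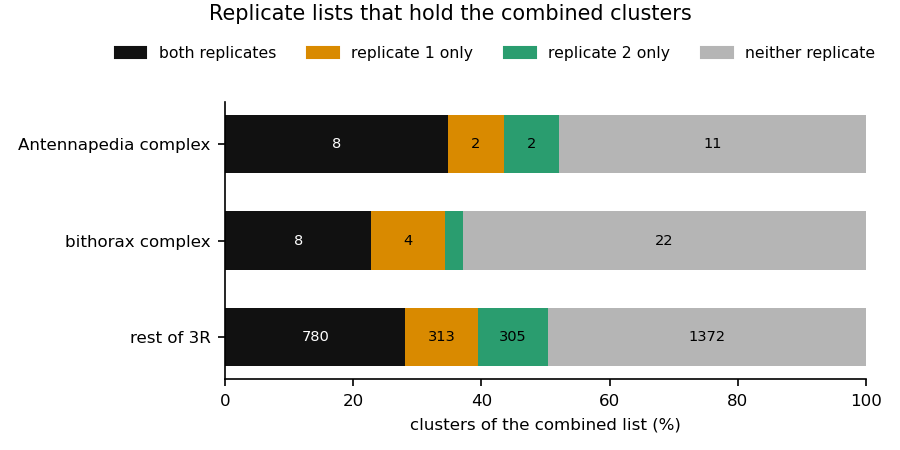
Share of the combined clusters (%) that overlap clusters of both replicates, of replicate 1 only, of replicate 2 only and of neither, for the Antennapedia complex, the bithorax complex and the rest of 3R. Numbers in the bars are clusters, and the narrow unnumbered part of the bithorax bar is 1 cluster. The part found in both replicates is 34.8%, 22.9% and 28.2%, and the part found in neither is 47.8%, 62.9% and 49.5%.

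Members found in 1 replicate only had lower median scores in the combined list than members found in both. The medians were 0.310 for replicate 1 only, 0.466 for replicate 2 only and 0.580 for both. The rest of 3R showed the same order, with medians of 0.389, 0.397 and 0.541, so the lower scores were not particular to the members. Combined clusters found in neither replicate had medians of 0.411 in the members and 0.405 on the rest of 3R. Both lay above the medians for replicate 1 only, so the combined score did not simply rise with replicate support. In the Antennapedia complex the combined clusters 3R:2634931-2637085 and 3R:2737717-2739610 overlapped replicate 1 only, with combined scores of 0.416 and 0.298. The clusters 3R:2481906-2484337 and 3R:2791608-2793298 overlapped replicate 2 only. The one scored 0.466, and the other, with 0.0946, had the second-lowest score of the 2828 combined clusters of 3R. In the bithorax complex 4 overlapped replicate 1 only, with combined scores from 0.260 to 0.390, and 1 overlapped replicate 2 only, with 0.485. All 22 members of replicate 1 were in the combined list, as were 1138 of 1143 clusters of replicate 1 (99.6%) on the rest of 3R. Of the 22 members of replicate 2, 2 were not, at 3R:2621911-2623231 and 3R:12677999-12679460, where on the rest of 3R 20 of 1158 (1.73%) were left out.

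Of the 58 members of the combined list, 33 were in neither replicate list. They were 11 of 23 in the Antennapedia complex, or 47.8% (26.8 to 69.4%), and 22 of 35 in the bithorax complex, or 62.9% (44.9 to 78.5%), where the rest of 3R had 49.5%. Both intervals include that share. These clusters were narrow, with median widths of 1243 bases in the Antennapedia complex, 1120 in the bithorax complex and 1267 on the rest of 3R. No cluster of replicate 1 on 3R was under 1301 bases wide. Of the combined clusters found in neither replicate, 16 of 22 in the bithorax complex and 8 of 11 in the Antennapedia complex were under that width, against 55.1% on the rest of 3R. They lay a median of 14.6 kb from the nearest replicate cluster in the Antennapedia complex and 8.34 kb in the bithorax complex, against 4.09 kb on the rest of 3R. Within 1 kb of a replicate cluster lay 1 of 11 in the Antennapedia complex and 5 of 22 (22.7%) in the bithorax complex, against 17.5% on the rest of 3R.

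Of these clusters, the highest combined score of each complex was looked up after the values were seen. In the Antennapedia complex it belonged to 3R:2564142-2565157, 1016 bases wide, and at 1.20 was the 51st of 2828 on 3R, and the nearest replicate cluster was 26.6 kb away. On the rest of 3R, 3 of 1372 combined clusters found in neither replicate scored as high (0.219%). In the bithorax complex it belonged to 3R:12587392-12588392, 1001 bases wide, with the highest combined score of that complex, 0.898, the 105th of 2828 on 3R. As high a score was found in 5 of 1372 combined clusters of neither replicate on the rest of 3R (0.364%). The cluster 3R:12587392-12588392 ended 190 bases before the nearest replicate cluster, at 3R:12588583-12590917 in replicate 1. Both are among the narrowest regions of the combined list, whose clusters on 3R were at least 1001 bases wide.

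Where the replicates overlapped, most of their clusters began and ended within 500 bases of each other. The Jaccard index of covered bases, the length under clusters of both replicates over the length under either, was 0.669 in the Antennapedia complex, 0.550 in the bithorax complex and 0.488 on the rest of 3R. In the windows its median was 0.488 for the length of the Antennapedia complex and 0.492 for that of the bithorax complex. It was higher in 2 of 75 windows than in the Antennapedia complex and in 21 of 80 than in the bithorax complex. The broad cluster, with 23.0% and 22.3% of the covered bases in replicates 1 and 2, enters the index of the Antennapedia complex. That index was not computed without it. Starts of overlapping clusters differed by a median of 69.5 bases in the Antennapedia complex, 67.5 in the bithorax complex and 133.5 on the rest of 3R. Ends differed by a median of 111.5, 91 and 123.5 bases. Single pairs lay further apart, with starts up to 222 bases apart in the Antennapedia complex and 602 in the bithorax complex, and ends up to 1519 and 669. A start or an end differed by 500 bases or more in 2 of 8 pairs of the Antennapedia complex and 3 of 8 of the bithorax complex, against 29.9% of 798 on the rest of 3R. As a description across 8 overlapping pairs of the same 2 libraries, Pearson's r of the scores was 0.97 and Spearman's rho 0.83 in the Antennapedia complex, and 0.85 and 0.74 in the bithorax complex, against 0.84 and 0.68 across 798 pairs on the rest of 3R. Without the broad cluster, left out after the values were seen, the Antennapedia complex had 0.83 and 0.75 over 7 pairs.

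Among the clusters found in both replicates, replicate 1 gave the wider region in most members, when each replicate's region with the longest overlap was compared. By this handling it held for 16 of 16 members (exact 95% interval 79.4 to 100%) and for 426 of 780 combined clusters on the rest of 3R, or 54.6%. Among windows of equal length, the share was also 100% in 2 of 75 for the Antennapedia complex and in 0 of 80 for the bithorax complex. At 3R:2673345-2676759 the handling decides the count, since the 2 regions of replicate 2 sum to 3323 bases, more than the 3251 of replicate 1. With all regions summed, a handling added after the values were seen, it held for 15 of 16 members (69.8 to 99.8%) and for 431 of 780, or 55.3%. The intervals treat neighbouring clusters as independent. The median of the width in replicate 1 minus that in replicate 2, by longest overlap, was 58.5 bases in the Antennapedia complex, 165.5 in the bithorax complex and 39.5 on the rest of 3R. The Antennapedia complex thus lay nearer to the rest of 3R than the bithorax complex did. Replicates of 1 group have no order, the pattern was noticed after the values were seen, and read depth, which is unknown here, was not tested.

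**Figure D4:**
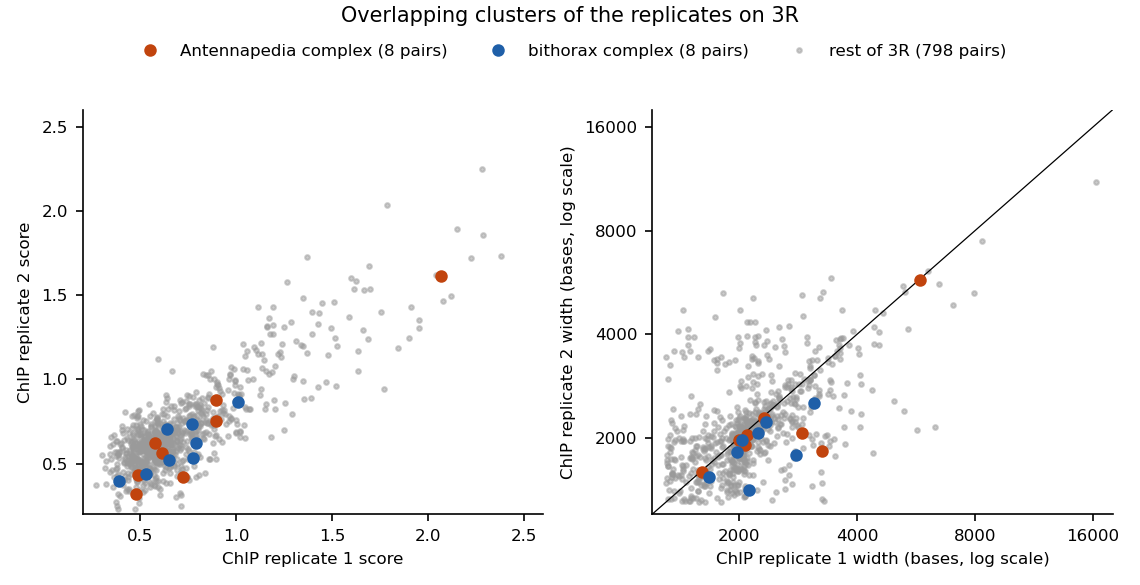
Scores (left) and widths (right, log scales, bases) of overlapping clusters in ChIP replicate 1 and ChIP replicate 2, for the Antennapedia complex, the bithorax complex and the rest of 3R, each point being 1 cluster of replicate 1 with the cluster of replicate 2 that overlaps it most. The black line in the right panel marks equal widths, and the 16 points of the complexes lie below it, 1 of them with only 1 of the 2 regions that replicate 2 has there. In the left panel the broad cluster of the Antennapedia complex stands at 2.07 and 1.61.

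The longest stretch without a cluster of either replicate was above the window median in the Antennapedia complex and below it in the bithorax complex. In the Antennapedia complex it ran over 86.5 kb, at 3R:2505260-2591805, against a window median of 79.3 kb, and 32 of 75 windows had a longer one. The combined list placed 7 clusters inside it or across its ends, 5 of them found in neither replicate. In the bithorax complex it was 62.4 kb, at 3R:12483031-12545470, against a window median of 77.9 kb, and 53 of 80 windows had a longer one. With the combined list, the longest free stretch was 41.5 kb in the Antennapedia complex and 29.5 kb in the bithorax complex, against window medians of 51.8 kb and 49.8 kb. By this measure a longer free stretch was found in 52 of 75 windows for the Antennapedia complex and in 68 of 80 for the bithorax complex.

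The borders of the complexes were set by the rule and cut across 1 cluster. The combined cluster 3R:12479248-12480458 began 752 bases before the bithorax complex and scored 0.471. Just beyond the end of the bithorax complex lay a cluster of both replicates, with scores of 0.959 in replicate 1 and 0.938 in replicate 2, starting 2.27 kb and 1.40 kb after the border. Inside the complex 1 cluster of replicate 1 scored higher than that, and none of replicate 2 did. Beyond the end of the Antennapedia complex the next replicate clusters began 64.6 kb and 62.0 kb away, with scores of 0.514 and 0.626.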

How the data were processed

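The aligner was Bowtie 0.12.7, as the submitters' processing notes state. Lists of enriched clusters are on FlyBase release 5, per the file headers, and each cluster has 1 score that the authors deposited without its scale. How regions were called, with which threshold, and how replicates were combined is not given in the sources used here. The labels cross the inputs: the list of ChIP replicate 1 used input replicate 2, and the list of ChIP replicate 2 used input replicate 1. The lists hold no read counts, so the depth is unknown. Inputs were not analysed here, and no genome sequence was used.

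Members were found by the overlap rule given with the results. Windows tiled 3R without overlap. The last partial window and windows touching a complex were left out. Cluster number, covered bases, median width and replicate support were fixed as measures, and ranks are descriptions without a test. Regions were named by rule: the combined clusters of each complex found in both replicates, the widest and highest-scoring clusters, and the longest free stretch. Others named (clusters of 1 replicate, the highest-scoring cluster found in neither replicate, clusters outside the combined list, border clusters) were chosen after their values were seen. The members and measures were chosen with earlier results of these data known. The overlap, coverage and joining steps were tested on simulated data. Python 3.11.15, NumPy 2.4.6, pandas 2.3.3, SciPy 1.17.1 and Matplotlib 3.10.9 were used.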

Additional observations from a re-analysis of the deposited data

How the results depend on the processing

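For the 4 measures in each complex, 58 alternative values were computed, and 53 stayed within the spread between replicates or, for replicate support, within the exact interval. Leaving out 1 of 2 replicates cannot pass that spread by construction for the ranks. The limits are also wide, up to an SD of 27.8 percentile points for a rank and an interval of 16.4 to 57.3% for support. Staying within them therefore says little about stability. The combined list in place of the replicates moved the cluster number of the Antennapedia complex to percentile 15.3 and its covered bases to percentile 17.3. It moved the bithorax complex to percentile 59.4 for number and 3.75 for median width. Windows of X, 2L, 2R, 3L and 3R moved the covered bases of the Antennapedia complex to percentile 43.3. The cause was not tested. Scores above the list median, joining clusters closer than 500 bases, a grid of windows moved along by 0.5 of their length, midpoints in place of overlap and an overlap of at least 50% moved none beyond these limits. No paired analysis was possible because only the ChIP samples have lists among the files used. Read depth is unknown, and so is how far it limits weak clusters.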
